A study of Mus musculus with 2 samples.

Results

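Rgs5-high cells of the mouse colon were the cells with a corrected Epcam count below 5, Rgs5 of 10 or more and Pecam1 below 3. There were 221 of them among the 7495 cells of the wild-type library (2.95%) and among its 4487 cells with Epcam below 5 (4.93%), and the whole series holds 11904 cells in 2 libraries. The wild-type library was made from colon of 3 female C57BL/6 mice aged 8 to 12 weeks, pooled, sorted by antibody into EpCAM-positive and EpCAM-negative cells that both lacked CD45, and mixed in equal parts. The other library holds GFP-sorted colon cells of 3 female Pdgfra-H2B-eGFP mice of the same age, in which a nuclear GFP marks cells that use the Pdgfra gene. Each library is 1 sample, the cells are not assigned to mice, and there is thus no replicate, no test and no p-value. Values are corrected counts, that is UMI counts adjusted by SCTransform to a common depth, given as means per cell. Intervals of shares are 95% Clopper-Pearson intervals and cover counting error only. Where no cell of a group was above 0, the limit given is instead 3 cells of that group, and it limits cells with a count, not cells that express the gene.

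Pericytes wrap the endothelium of capillaries inside its basement membrane, and vascular smooth muscle cells ring the larger vessels. Together they are called mural cells. They are recruited by PDGF-B from the endothelium through the receptor Pdgfrb, depend on Notch3, and set vessel diameter through calcium, potassium channels and cyclic GMP. The gut wall also holds visceral smooth muscle in its muscle layers, which shares the contractile apparatus with the mural cells but belongs to the wall itself. Rgs5, a GTPase-activating protein that shortens signalling by G proteins, is a usual marker of mural cells. It lies on chromosome 1 from 169655501 to 169695813 on the plus strand (GRCm38).

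The cells were chosen by their values of Rgs5, Epcam and Pecam1, which are given as a description. Rgs5 had a lower quartile of 14, a median of 22, an upper quartile of 34 and a highest value of 129. Of 341 cells with Rgs5 of 10 or more and Epcam below 5, 120 were left out for Pecam1 of 3 or more, and 10 further Rgs5-high cells were left out for Epcam of 5 or more. Just outside the limit, the 28 cells with Rgs5 of 8 or 9 had mean Notch3 of 0.321 and mean Myh11 of 15.9. Just inside it, the 24 cells with Rgs5 of 10 or 11 had mean Notch3 of 0.458 and mean Myh11 of 12.2. In both sets 75% of the cells had Myh11 of 5 or more, and the limit on Rgs5 ran through cells with like shares of Myh11.

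The label of pericytes was then checked against Pln, Vtn, Notch3 and Kcnj8, the 4 mural markers that the rule did not use. Notch3, the receptor that mural cells need, was above 0 in 44.3% of the Rgs5-high cells (37.7% to 51.2%), against 1.06% of the cells with Epcam of 5 or more, a class that should lack it. Kcnj8 was above 0 in 52.5% and the matrix protein gene Vtn in 36.2% (29.9% to 42.9%), against 1.33% and 0.233% of the cells with Epcam of 5 or more. The Rgs5-high cells had a median of 2277 genes detected and a median total of 8131 corrected counts, and the cells with Epcam of 5 or more had 3145 and 9648, so these shares were higher in the cells with fewer genes. Among the other cells with Epcam below 5, Notch3 was above 0 in 3.09%, Kcnj8 in 12.1% and Vtn in 2.91%. In smooth muscle cells these 3 shares were 1.44%, 18.7% and 0.360%. In cells with Pecam1 of 3 or more they were 15.2%, 13.4% and 13.4%. Pln, the phospholamban that holds back the calcium pump of the muscle store, was above 0 in 10 of 221 cells (4.52%, 2.19% to 8.16%). Of the 221 cells, 79 (35.7%, 29.4% to 42.5%) had none of Notch3, Vtn and Kcnj8, and 59 (26.7%, 21.0% to 33.0%) had all of them. The label of pericytes thus had its markers in some of these cells and not in others, and they are called Rgs5-high cells here.

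The smooth muscle myosin gene Myh11 divided them. It was at 5 or more, the level that defined smooth muscle cells here, in 109 of 221 Rgs5-high cells (49.3%, 42.6% to 56.1%). These are called Myh11-high below, and the other 112 Myh11-low. The Myh11-low cells had a median Rgs5 of 30 and the Myh11-high cells a median of 17. The Myh11-high cells were divided again by Hhip, the hedgehog-binding protein that was at 2 or more in 787 of 834 smooth muscle cells (94.4%, 92.6% to 95.8%). Of them, 65 had Hhip of 2 or more and 44 had less, a cut that was chosen after the values were seen.

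**Figure D1:**
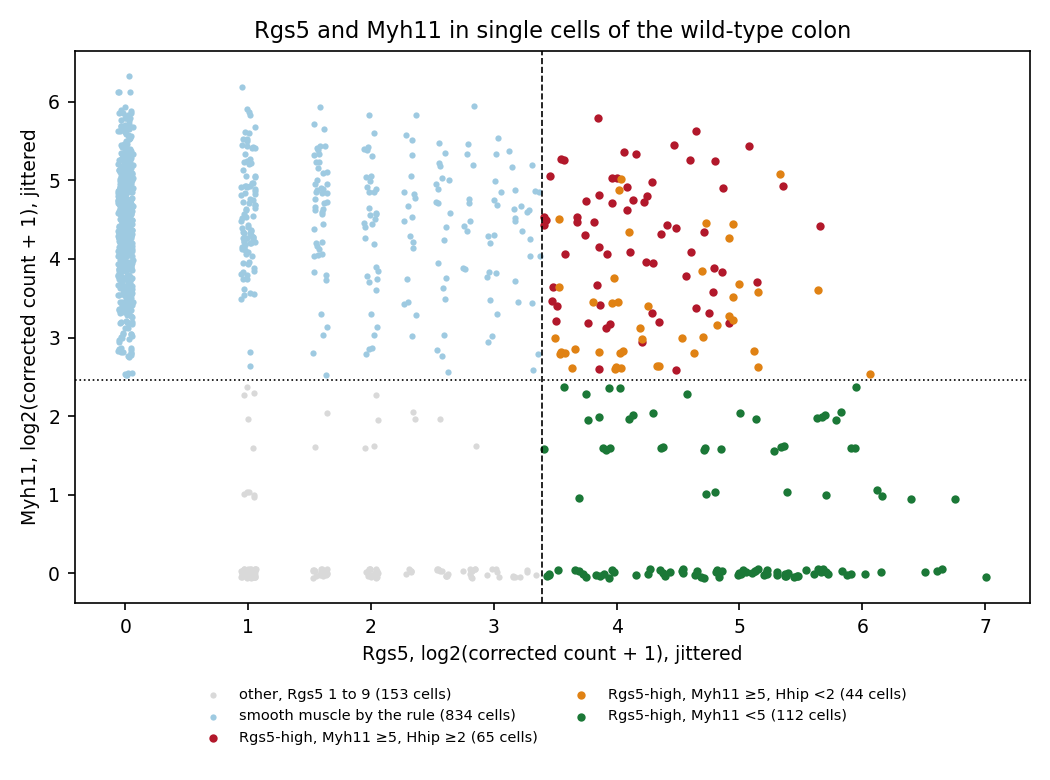
Each point is 1 cell of the wild-type library, either Rgs5-high, smooth muscle (blue) or another cell with Rgs5 of 1 to 9 (grey), with log2(Rgs5 + 1) on the x axis and log2(Myh11 + 1) on the y axis, both in corrected counts with a small jitter. The dashed line marks Rgs5 of 10 and the dotted line Myh11 of 5. The 112 Myh11-low cells (green) reach the highest Rgs5 values, and the 109 Myh11-high cells (orange and red) lie in the same band of Myh11 as the 834 smooth muscle cells.

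The Myh11-low cells carried the receptors and surface proteins of pericytes. Pdgfrb, the receptor for PDGF-B, had a mean of 5.10 and a median of 5 there, and a mean of 1.10 and a median of 0 in the Myh11-high cells. Among the latter, Pdgfrb was at 2.05 in cells with low Hhip and at 0.462 in cells with high Hhip, close to the 0.415 of smooth muscle cells. Notch3 had means of 3.20, 2.07 and 0.154 in the same order, against 0.0336 in smooth muscle. Notch3 was thus well above the smooth muscle level in the Myh11-low cells and in the Myh11-high cells with low Hhip. Cspg4, the NG2 proteoglycan of pericytes, was at 1.56 in Myh11-low cells, 0.341 with low Hhip and 0.308 with high Hhip.

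Kcnj8 and Abcc9 encode the pore and the sulphonylurea receptor of the vascular ATP-sensitive potassium channel. They are neighbours on the minus strand of chromosome 6 (GRCm38), Kcnj8 from 142564837 to 142571614 and Abcc9 from 142587862 to 142702315. Their means were 3.21 and 2.65 in the Myh11-low cells, 1.34 and 0.636 in the Myh11-high cells with low Hhip, 0.492 and 0.6 with high Hhip, and 0.265 and 0.300 in smooth muscle. Both genes of the channel were above 0 in 59 of 112 Myh11-low cells (52.7%), 13 of 44 Myh11-high cells with low Hhip (29.5%), 5 of 65 with high Hhip (7.69%) and 50 of 834 smooth muscle cells (6.00%). The pairs of genes counted within cells were chosen after their values were seen.

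Subunits of the respiratory chain that few tissues use followed the same cells. Ndufa4l2 and Cox4i2, tissue-restricted counterparts of Ndufa4 and Cox4i1, had means of 4.18 and 4 in Myh11-low cells, and 0.0588 and 0.0827 in smooth muscle. Both were above 0 in 66 of 112 Myh11-low cells (58.9%), 13 of 44 Myh11-high cells with low Hhip (29.5%) and 1 of 65 with high Hhip (1.54%). Their common counterparts were higher in the Myh11-high cells. Cox4i1 was at 6.45 in Myh11-low and 8.36 in Myh11-high cells, within 2-fold, and Ndufa4 at 3.30 and 6.73, past 2-fold. Higd1b, also known from pericytes, was at 0.562 in the Myh11-low cells and 0.364 with low Hhip, and it was above 0 in none of the 65 cells with high Hhip, which allows a share of cells with a count of up to 4.62% (3 of 65).

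Over all 221 cells, 20 of the 23 further pericyte genes with a mean of 0.1 or more in either group were 2-fold or more higher than in the 4266 other cells with Epcam below 5, and 2 were 2-fold or more lower. Among all 8245 genes compared, 2.90% were higher and 5.43% lower by that fold. Folds are ratios of the means after adding 0.05. The median log2 ratio of the list was 1.80, beside -0.05 for all genes. Those higher included Rgs4 (11.9-fold), another shortener of G protein signals, Ndufa4l2 (13.3-fold), Cox4i2 (8.31-fold), Abcc9 (6.52-fold), the Notch target Heyl (5.56-fold), Pdgfrb (4.33-fold) and the transcription factor gene Ebf1 (3.03-fold). Cd248 and Anpep, both used for pericytes of other organs, were lower, at 0.244 against 0.998 and at 0.0995 against 0.280. Against the 834 smooth muscle cells 17 of 22 genes of the list were higher and 1, P2ry14, was lower, where 5.41% of 8042 genes were higher and 3.64% lower. Ebf1 was 28.7-fold higher there, Vtn 27.5-fold, Notch3 25.4-fold and Ndufa4l2 25.3-fold.

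Within the Rgs5-high cells, 14 of 23 further pericyte genes were 2-fold or more lower in the Myh11-high than in the Myh11-low cells, and only P2ry14 was higher by that fold. Of all 8198 genes compared, 6.87% were lower and 7.54% higher in the Myh11-high cells. Heyl had the largest difference of the list, at 1.00 in Myh11-low and 0.0734 in Myh11-high cells. Ebf1, at 9.13 against 2.23, and Rgs4, at 1.77 against 0.716, were also lower.

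**Figure D2:**
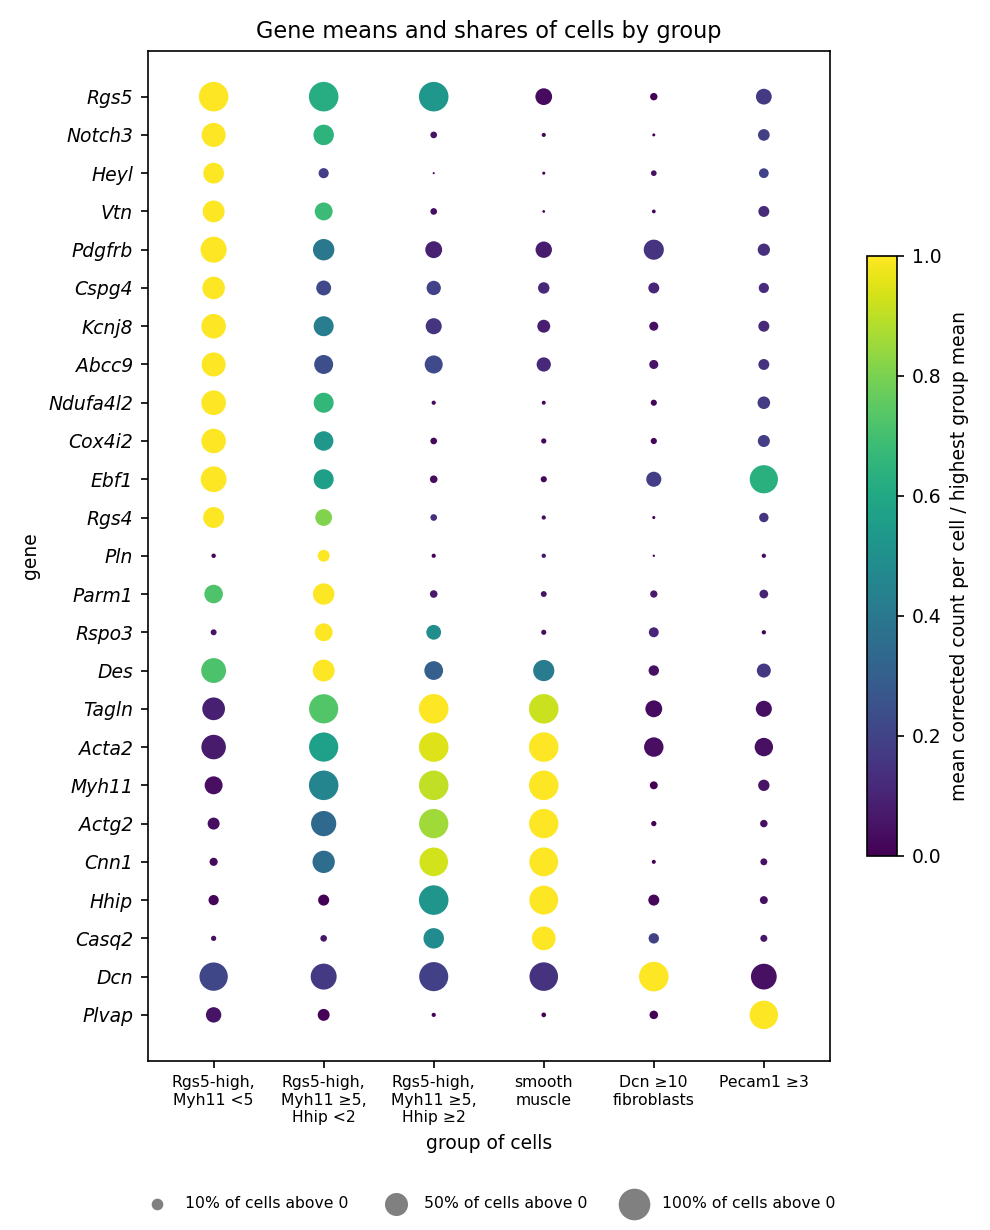
Rows are genes and columns are groups of cells. Colour is the mean corrected count per cell divided by the highest of the 6 group means of that gene, and the area of a dot grows with the share of cells above 0. Notch3, Vtn, Kcnj8, Abcc9, Ndufa4l2 and Cox4i2 are highest in the Myh11-low cells, and Pln, Parm1 and Rspo3 in the Myh11-high cells with low Hhip. The Myh11-high cells with high Hhip are near smooth muscle in Acta2, Tagln, Cnn1 and Actg2. Their Hhip and Casq2 are lower than in smooth muscle, and their Rspo3 and Rgs5, which chose them, are higher.

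The contractile genes ran the other way. Of 29 genes of the contractile list, 23 were 2-fold or more higher in the Myh11-high than in the Myh11-low cells. None was lower by that fold, beside 7.54% of all 8198 genes higher and 6.87% lower. The median log2 ratio of the list was 2.05, beside 0.09 for all genes. The list also holds genes outside the actin and myosin apparatus, and Hhip, Myocd and Mustn1 were among the 23. Myh11, 1 of the 23, made the split. Acta2, the smooth muscle actin, had a mean of 7.90 and a median of 1.5 in Myh11-low cells and a mean of 85.7 and a median of 82 in Myh11-high cells. It was at 108 in smooth muscle. Calponin, encoded by Cnn1, was at 0.188 and 5.22, and Actg2, the actin of visceral muscle, at 0.598 and 11.8. Myocd, the coactivator that drives contractile genes, was above 0 in 1.79% of Myh11-low and 40.4% of Myh11-high cells. Des, the intermediate filament desmin, did not follow this order, with means of 3.08 in Myh11-low cells, 4.30 in Myh11-high cells with low Hhip, 1.28 with high Hhip and 1.80 in smooth muscle.

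Compared with the smooth muscle cells, the whole set of Rgs5-high cells had 17 of 29 contractile genes 2-fold or more lower and 1, Sncg, higher. Of all 8042 genes compared, 3.64% were lower and 5.41% higher by that fold. Myh11, 1 of the 17, was used to define the smooth muscle cells. Sncg encodes a synuclein. The Myh11-high cells with high Hhip had Acta2 of 102, Tagln of 85.0, Cnn1 of 6.97 and Actg2 of 15.6, near the 108, 78.0, 7.49 and 18.2 of smooth muscle. Their Hhip was lower, at 10.3 against 19.8, as were Casq2, which binds calcium in the muscle store, at 0.938 against 1.97, and the thrombin receptor gene F2r, at 1.83 against 5.42.

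The promoters of the contractile genes were searched for the CArG box, the element that serum response factor binds and through which myocardin acts, in the strict form of its pattern, which reads the same on both strands. It was found in 3 of 25 contractile genes with a promoter in the table (12%), in 488 of all 27025 promoters (1.81%), and in none of 5 mural markers and 20 further pericyte genes. A match is a description of letters, and other forms of the element were not searched. The promoters that held it are shown because their genes were higher in the Myh11-high cells: Myl9 had means of 5.46 in Myh11-low and 30.4 in Myh11-high cells, Myl6 15.6 and 49.0, and Actc1 0.0179 and 0.642. The windows run from 250 bases before to 50 bases after the gene start (RefSeq, GRCm38.p6), lie at chr2:156775214-156775513 on the plus strand for Myl9, chr10:128492960-128493259 on the minus strand for Myl6 and chr2:114052826-114053125 on the minus strand for Actc1, and have the box in capitals.
Myl9: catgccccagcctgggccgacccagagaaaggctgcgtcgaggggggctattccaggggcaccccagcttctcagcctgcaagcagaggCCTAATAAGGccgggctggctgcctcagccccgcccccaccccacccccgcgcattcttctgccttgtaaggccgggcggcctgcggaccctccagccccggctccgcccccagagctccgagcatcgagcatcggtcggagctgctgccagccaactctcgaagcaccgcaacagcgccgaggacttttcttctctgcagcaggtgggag
Myl6: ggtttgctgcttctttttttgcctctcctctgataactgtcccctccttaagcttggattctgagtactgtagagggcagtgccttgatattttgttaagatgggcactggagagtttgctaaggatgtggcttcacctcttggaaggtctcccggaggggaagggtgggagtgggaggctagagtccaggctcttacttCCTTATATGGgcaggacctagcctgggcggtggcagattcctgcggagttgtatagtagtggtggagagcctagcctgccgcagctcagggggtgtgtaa
Actc1: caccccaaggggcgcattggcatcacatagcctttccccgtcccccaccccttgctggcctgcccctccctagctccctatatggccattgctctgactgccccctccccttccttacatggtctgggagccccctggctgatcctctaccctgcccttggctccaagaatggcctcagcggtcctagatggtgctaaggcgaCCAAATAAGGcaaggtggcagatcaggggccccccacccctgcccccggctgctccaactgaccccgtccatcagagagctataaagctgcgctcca

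The 44 Myh11-high cells with low Hhip combined contractile genes with mural genes in their means. Acta2 was at 61.0, Tagln at 61.8 and Myh11 at 10.7, beside Notch3 at 2.07, Vtn at 1.80, Ndufa4l2 at 2.75 and Ebf1 at 5.14. Pln was above 0 in 7 of them (15.9%, 6.64% to 30.1%), in 1 of the 65 with high Hhip and in 2 of the 112 Myh11-low cells. All 7 also had Notch3 above 0. Its mean of 1.89 in the 44 cells rested on few of them, since the 3 highest held 69.9% of the sum. Parm1 was at 1.23 there and at 0.0769 in the cells with high Hhip, and it was above 0 in 52.3% of the former, beside 57.5% of the cells with Epcam of 5 or more. These 44 cells were not alike: 11 had none of Notch3, Vtn and Kcnj8 above 0, 17 had 1, 8 had 2 and 8 had all of them. By the doublet score of Scrublet, 6 of the 44 (13.6%) were in the top 5% of the library. That share was 6.15% with high Hhip, 8.93% in Myh11-low cells and 6.5% in smooth muscle. Whether some of the 44 were doublets was not tested.

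**Figure D3:**
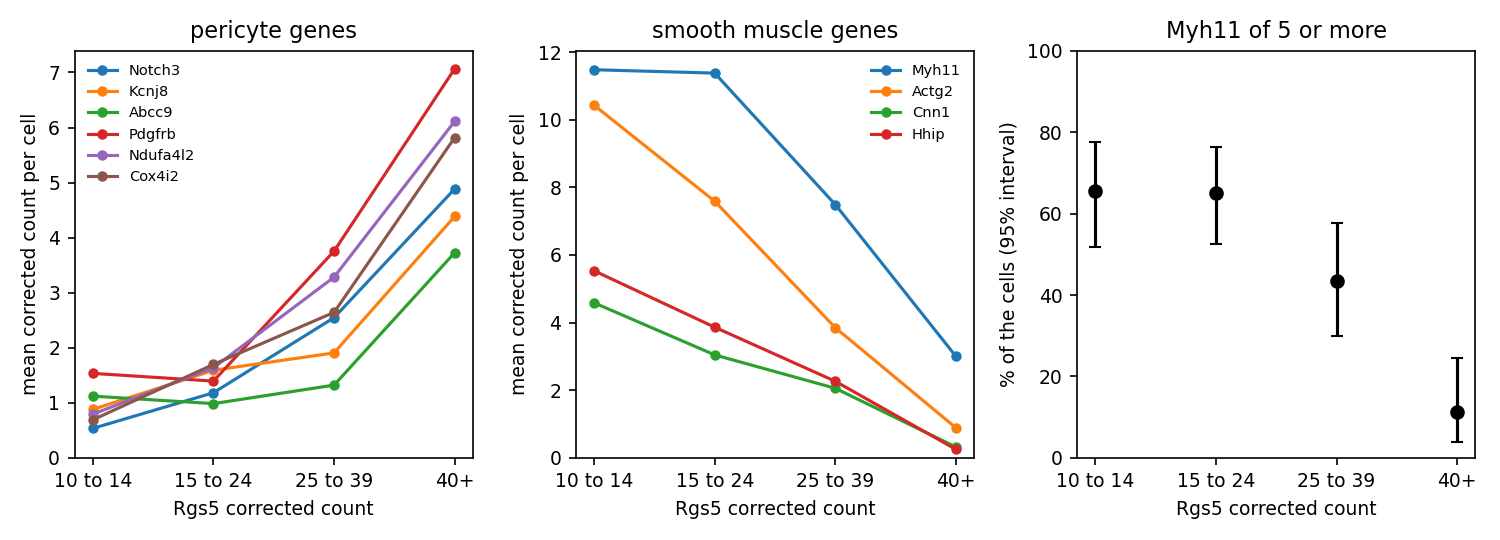
The x axes give 4 ranges of the corrected Rgs5 count, with 58, 66, 53 and 44 cells. The left and middle plots show mean corrected counts per cell of 6 pericyte and 4 smooth muscle genes, and the right plot shows the share of cells with Myh11 of 5 or more with its 95% Clopper-Pearson interval. Pdgfrb is at 7.07 and Myh11 at 3.00 in the range of 40 or more, against 1.53 and 11.5 in the range of 10 to 14.

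Pericyte genes were higher where Rgs5 was higher, a description, since Rgs5 chose the cells. Among the 58 cells with Rgs5 of 10 to 14, 65.5% had Myh11 of 5 or more (51.9% to 77.5%), and among the 44 cells with Rgs5 of 40 or more 11.4% did (3.79% to 24.6%). Notch3 was at 0.534 in the lowest and 4.89 in the highest range, Kcnj8 at 0.879 and 4.39, and Ndufa4l2 at 0.793 and 6.11. The cells with Rgs5 of 40 or more thus had the highest means of these 3 genes among the 4 ranges.

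Genes that pass on vasoactive signals were measured at low levels. Of 24 receptor genes past the filter, 8 were 2-fold or more higher in the Rgs5-high cells than in the other cells with Epcam below 5 and 4 were lower, beside 2.90% and 5.43% of all genes, with a median log2 ratio of -0.06, near that of all genes. Those higher included Olfr558, an odorant receptor expressed in vessels, at 0.425 against 0.0209, Adra2a, an adrenergic receptor, at 0.344 against 0.0256, and S1pr3, a receptor of sphingosine 1-phosphate, at 0.330 against 0.0619. Adra2a was at 0.652 in Myh11-low and 0.0275 in Myh11-high cells, and above 0 in 30.4% and 2.75% of them, beside 13.6% of the cells with Epcam of 5 or more. Ednra, the receptor of endothelin, was at 0.959 in the Rgs5-high cells, 0.624 in the others and 1.22 in smooth muscle, within 2-fold of both.

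Among genes of nitric oxide, cyclic nucleotide and G protein signalling, 11 of 23 were 2-fold or more higher than in the other cells. None was lower by that fold, beside the same 2.90% and 5.43% of all genes. The 11 included Rgs5, which was used by the rule. Rgs4 and Rgs7bp, also among them, belong to the G protein part of the list. Gucy1a3 and Gucy1b3, the subunits of soluble guanylate cyclase that binds nitric oxide, were at 2.43 and 2.56 against 0.988 and 0.876. Both were above 0 in 70 of 112 Myh11-low cells (62.5%), 25 of 44 Myh11-high cells with low Hhip (56.8%) and 34 of 65 with high Hhip (52.3%), near the 50.5% of smooth muscle cells. Pde5a, which breaks down cyclic GMP, was at 1.52 in Myh11-low and 3.38 in Myh11-high cells. Among channel and calcium genes 12 of 28 were higher and none lower by 2-fold. Ano1, a calcium-activated chloride channel of vascular muscle and of the pacemaker cells of the gut, was at 1.07 against 0.115 and had means of 1.06 in Myh11-low and 1.07 in Myh11-high cells. It was above 0 in 38.0% of the Rgs5-high cells and in 24.7% of the cells with Epcam of 5 or more.

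Of the Notch pathway 6 of 16 genes were 2-fold or more higher than in the other cells and 1, Dll1, was lower, where 2.90% of all genes were higher and 5.43% lower. Notch3 and its target Heyl were above 0 in the same cell in 44 of 112 Myh11-low cells (39.3%), 5 of 44 Myh11-high cells with low Hhip (11.4%) and 0 of 65 with high Hhip, where the limit for cells with counts of both is again 4.62%. Jag1, a ligand that mural cells also make, was at 0.774 against 0.281. Hes1, a target that many cell types use, was at 7.54 against 5.84, within 2-fold.

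The transcription factors higher by 2-fold or more than in the other cells were 8 of 50, and 7 were lower. Over all genes 2.90% were higher and 5.43% lower, which holds beside the counts of this paragraph. Nr2f2, known from veins, was at 3.25 in Myh11-low and 1.48 in Myh11-high cells, against 0.611 in the other cells. Foxs1, a forkhead gene of mural cells, was at 0.258 against 0.0216. Tbx18, which marks mural cells in other organs, was above 0 in 0.905% of the Rgs5-high cells. Of genes for basement membrane, 4 of 25 were higher and 5 lower by 2-fold, and the type IV collagen gene Col4a1 was within 2-fold, at 8.79 against 6.33. Lamc3, a laminin chain, was among the higher ones, at 0.647 against 0.0366, with 1.12 in Myh11-low cells. The interstitial matrix was lower, with 14 of 37 genes 2-fold or more lower and 3 higher, the proteases Adamts1, Adamts4 and Adamts9.

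Among the signals of the crypt niche, 14 of 31 genes were 2-fold or more higher in Myh11-high than in Myh11-low cells and 2 were lower, beside 7.54% and 6.87% of all genes. Of 37 such genes, 5 were 2-fold or more higher in the Rgs5-high cells than in the other cells with Epcam below 5 and 14 were lower, beside 2.90% and 5.43% of all genes, with a median log2 ratio of -0.48. Rspo3, which strengthens Wnt signals to crypt stem cells, was at 0.0714 in Myh11-low cells, 1.45 in Myh11-high cells with low Hhip, 0.708 with high Hhip and 0.0540 in smooth muscle. It was above 0 in 16 of 44 cells with low Hhip (36.4%) and 16 of 65 with high Hhip (24.6%), beside 0.632% of the cells with Epcam of 5 or more. Chrdl1 and Nog, which hold back BMP signals, were at 1.20 and 0.955 in the cells with low Hhip, and Nog rested on 9 of them. The log2 ratio of Rspo3 over the other cells was 1.97, 1.22 with Rgs5 of 20 or more and -0.0224 without cells above 10% mitochondrial counts. Over smooth muscle it was 2.49, and 0.64 without those cells or 1.09 with Rgs5 of 20 or more. Between Myh11-high and Myh11-low cells it was 3.12, and 2.64 without those cells. It moved to 1.92 there with Rgs5 of 5 or more and to 3.74 with 20 or more. The median mitochondrial share was 13.0% in the Myh11-high cells with low Hhip, 10.4% with high Hhip, 9.11% in Myh11-low cells and 9.73% in smooth muscle. Wnt4, Wnt5a and Bmp5, made by fibroblasts near the crypt top, were lower in the Rgs5-high cells, at 0.0950, 0.154 and 0.679 against 1.08, 0.758 and 1.92.

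**Figure D4:**
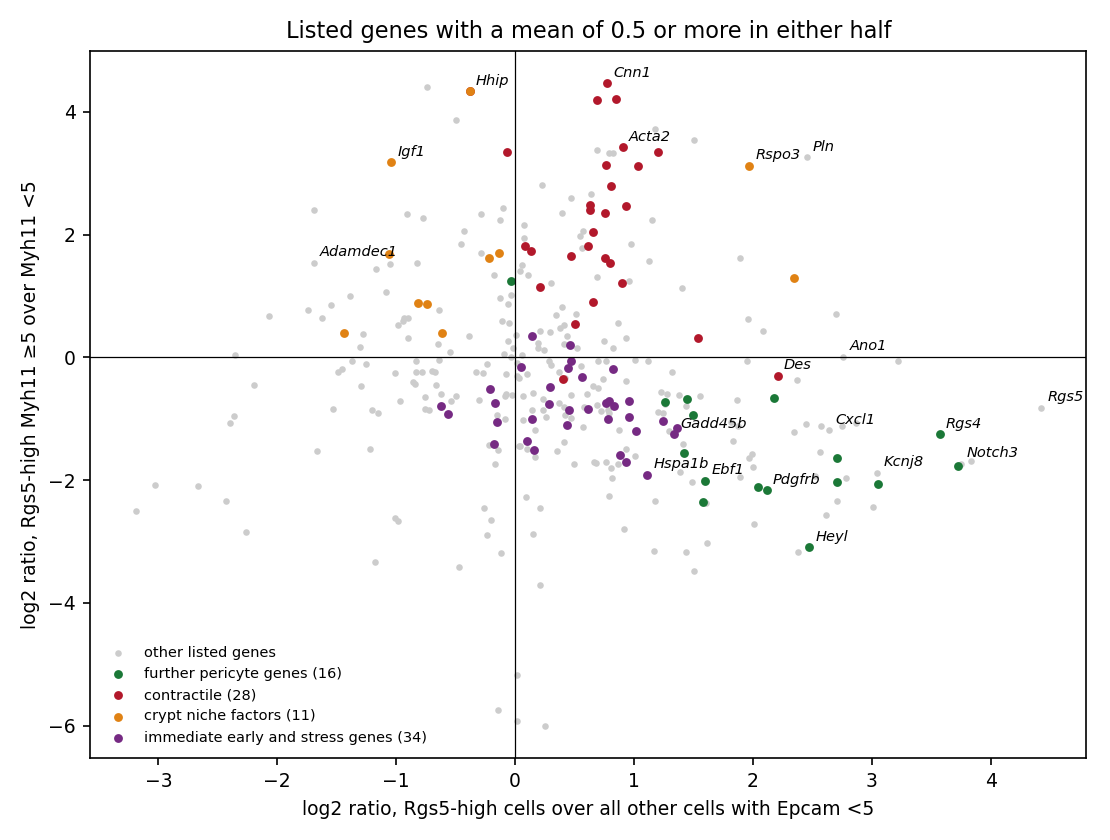
Each point is a gene of the lists or of the leading genes with a mean of 0.5 or more in Myh11-low or Myh11-high cells. The x axis gives the log2 ratio of the Rgs5-high cells over all other cells with Epcam below 5 and the y axis the log2 ratio of Myh11-high over Myh11-low Rgs5-high cells, and colours mark 4 of the lists. Pericyte genes such as Heyl lie at the lower right, contractile genes such as Cnn1 at the top, and Rspo3 at the upper right.

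Some Rgs5-high cells had high counts of chemokines. Cxcl1, which attracts neutrophils, was at 5.17 in the Rgs5-high cells against 0.786 in the other cells with Epcam below 5, and it was above 0 in 78 of 221 cells with a highest value of 95. It was at 7.17 in Myh11-low cells, 7.25 in Myh11-high cells with low Hhip, where the 3 highest cells held 64.0% of the sum, and 0.323 with high Hhip. Ccl11, the eotaxin that attracts eosinophils, was at 5.54 against 2.26, and at 0.514 in smooth muscle. Fibroblasts also had it, at 4.09 in the 1982 with none of Notch3, Vtn and Kcnj8 above 0 and 3.13 in the 215 with 1 of them. Of 42 immune signalling genes, 5 were 2-fold or more higher and 17 were lower than in the other cells, beside 2.90% and 5.43% of all genes. Cd74, the invariant chain of antigen presentation by class II, was above 0 in 1 cell.

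Immediate early and stress genes were higher in the Myh11-low cells. Of 34 such genes, 14 were 2-fold or more lower in Myh11-high cells and none was higher by that fold, beside 6.87% and 7.54% of all genes. Their sum had a median of 376.5 in Myh11-low cells, 175.5 in Myh11-high cells with low Hhip, 168 with high Hhip and 178 in smooth muscle. The median of this sum was 294 in cells with Pecam1 of 3 or more and 177 in all other cells with Epcam below 5. The heat shock gene Hspa1a was at 26.6 in Myh11-low and 8.16 in Myh11-high cells, and the stress gene Gadd45b at 20.4 and 8.53. Fos did not differ in the same way, at 34.0 and 32.7. The part of this set in the values of the other genes was not tested.

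Markers of other cell types were present at uneven levels. The 20 endothelial markers had a median sum of 3 in Myh11-low and 1 in Myh11-high cells, against 105 in cells with Pecam1 of 3 or more, and Pecam1 was used by the rule. Against smooth muscle, 6 of 9 endothelial markers past the filter were 2-fold or more higher in the Rgs5-high cells, beside 5.41% of all genes. Of the 221 cells, 6 were above 25% of that median, and 5 of these were Myh11-low. The 120 cells left out for Pecam1 had mean Notch3 of 3.26, Vtn of 1.75 and Plvap, an endothelial gene, of 22.2. The 16 fibroblast markers had a median sum of 37.5 in Myh11-low and 77 in Myh11-high cells, against 461 in fibroblasts and 75 in smooth muscle. They were above 25% of the fibroblast median in 22 Myh11-low and 20 Myh11-high cells. The 23 Myh11-low cells with none of Notch3, Vtn and Kcnj8 had mean Dcn, a proteoglycan of fibroblasts, of 46.7 and mean Pdgfra of 2.57, against 11.9 and 0.102 in the 49 Myh11-low cells with all of them. Their part in the results was not tested. The log2 ratio of Notch3 over the other cells was 3.75, and 4.02 without the 49 Rgs5-high cells above 25% of the endothelial, fibroblast or epithelial median.

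Epithelial RNA was seen in nearly all cells, and not only in the Rgs5-high cells. At least 1 of 15 epithelial markers was above 0 in 97.3% of Rgs5-high cells and 95.6% of the other cells. The sum of these markers had means of 9.03 and 9.18 and medians of 8 and 5, and Epcam was used by the rule. Krt8 was above 0 in 82.1% of Myh11-low and 54.1% of Myh11-high cells, with means of 1.42 and 1.12 against 39.6 in cells with Epcam of 5 or more. Epcam of 1 to 4 was found in 72.3% of Myh11-low and 41.3% of Myh11-high cells. With Epcam at 0, 95 Rgs5-high cells were left, of which 67.4% were Myh11-high, and the log2 ratio of Notch3 over the other cells was 2.95 in place of 3.75. Of 12 glia markers 6 were at 0 in every Rgs5-high cell, among them Sox10, and of 12 immune markers 8 were, among them Ptprc and C1qa, which allows a share of cells with a count of up to 1.36% for each (3 of 221). The cells had been sorted as CD45-negative. Of the 4 genes listed for interstitial cells of Cajal, the pacemaker cells of the gut, 3 passed the filter on the mean. Kit and Ano1 were 2-fold or more higher than in the other cells, and none lower, beside 2.90% and 5.43% of all genes. Over smooth muscle 3 of 3 were higher, Ano1, Kit and Etv1, beside 5.41% of all genes. At least 1 of the 4 was above 0 in 45.7% of Rgs5-high cells and 25.9% of the other cells. That share was 7.07% in smooth muscle and 42.9% in cells with Epcam of 5 or more. Kit was above 0 in 11 Rgs5-high cells (4.98%) and in 23.6% of the cells with Epcam of 5 or more. Its means were 0.498 in the Rgs5-high cells and 0.0251 in the other cells with Epcam below 5. One Myh11-low cell held 1436 counts of the haemoglobin gene Hbb-bs, and the mean was 6.68 with it and 0.182 without it.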

How the data were processed

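Each library was made from pooled colon cells of 3 mice. The authors aligned reads to mm10 and counted UMIs with Cell Ranger, filtered cells and genes, and ran SCTransform in Seurat 3.1 under R 3.6.2. The score values as deposited are the corrected counts of that step, whole numbers but not UMIs, and the authors' second table per library gives their natural log after adding 1. This was read from the values: totals per cell spanned only 6120 to 16389 in the wild-type library (median 8972), and the depth sequenced is not known. Levels of different genes are not per length.

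Means, folds on the mean plus 0.05 (2-fold, genes with a mean of 0.1 or more in either group) and shares were computed with numpy 2.4.6 and scipy 1.17.1, and plots drawn with matplotlib 3.10.9, under Python 3.11.15. Smooth muscle cells had Epcam below 5, Myh11 of 5 or more, Rgs5 below 10 and Pecam1 below 3, and fibroblasts Dcn of 10 or more with Epcam below 5, Pecam1 below 3, Rgs5 below 10 and Myh11 below 5. Coordinates are those of GENCODE M21 on GRCm38, joined by symbol (97.7% matched). Named genes are those of 26 lists (590 of 601 genes found), and the 30 highest and 15 lowest ratios of each comparison (15 and 15 between Myh11-high and Myh11-low cells), among genes with a mean of 0.5 and 25% of cells above 0. Some of these genes are not reported here. The members and lists were chosen with earlier results of these data known. Doublets were kept: Scrublet (scanpy 1.11.5) called 7 of 7495 cells (0.0934%) and none of the Rgs5-high cells, too few for its threshold to have worked.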

Additional observations from a re-analysis of the deposited data

Results flagged for a closer look

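The reporter library, whose cells were sorted for GFP under the Pdgfra gene, was not part of the comparisons. By the same rule 4 of its 4409 cells were Rgs5-high (0.0907%, 0.0247% to 0.232%), and it was flagged because a signal appeared there. Their Rgs5 counts were 12, 11, 10 and 10, and Notch3, Vtn, Kcnj8 and Myh11 were at 0 in each of them. Pdgfra was at 2 and 3 in 2 of them and at 0 in the others. The kit and the depth of correction differed between the libraries (median totals of 3150 and 8972), so the same limit of 10 does not mean the same level, and the shares are not compared. 1 cell barcode occurred in both libraries, and none of the 221 Rgs5-high cells of the wild-type library had a barcode of the reporter library.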

How the results depend on the processing

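No paired analysis was possible because each condition is 1 library and no test was run. For 58 genes under 18 alternatives, 2549 of 2958 ratios stayed within 1.5-fold, 400 moved further and 9 of those past 2-fold changed sign. The alternatives that left out Hhip-positive Myh11-high cells, the top 5% of Scrublet scores or the haemoglobin cell, and smooth muscle without the Epcam limit, were chosen after seeing the data. Scaling to the total of the cell and thinning to 6000 moved none of these ratios by over 1.5-fold, but turned the balance of calls between Myh11-high and Myh11-low cells, from 618 genes higher and 563 lower to 581 and 700 when scaled and 474 and 592 when thinned.

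There were 221 Rgs5-high cells, 49.3% of them Myh11-high. With Rgs5 of 20 or more there were 120 and 33.3%, and with Epcam below 1 there were 95 and 67.4%. Over the other cells 239 genes were 2-fold or more higher and 448 lower. The higher count was 54 with a pseudocount of 0.5, 116 with a mean of 0.5 or more and 362 without the Hhip-positive cells. The lower count was 685 with Rgs5 of 20 or more, 98 with a pseudocount of 0.5, 190 with a mean of 0.5 or more, 288 on the mean of ln(1 + value) and 723 without cells over 10% mitochondrial. Over smooth muscle 435 genes were higher and 293 lower. The higher count was 84 with a pseudocount of 0.5, 177 with a mean of 0.5 or more and 247 on the mean of ln(1 + value). The lower count was 183 with Rgs5 of 5 or more, 592 with 20 or more, 60 with a pseudocount of 0.5, 170 with a mean of 0.5 or more, 574 without cells over 10% mitochondrial and 579 without the Hhip-positive cells. Between Myh11-high and Myh11-low cells 618 genes were higher and 563 lower. The higher count was 1081 with Rgs5 of 20 or more, 947 with a pseudocount of 0.01, 114 with 0.5, 232 with a mean of 0.5 or more, 1353 without cells over 10% mitochondrial and 959 without cells with markers of other types. The lower count was 969 with Rgs5 of 20 or more, 110 with a pseudocount of 0.5 and 259 with a mean of 0.5 or more. A higher filter tests fewer genes and a higher pseudocount shrinks ratios of low genes. The cause of the other moves was not tested.

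Of the genes past 2-fold against smooth muscle, 59.7% were higher, and 43.9% on the mean of ln(1 + value), which put the median of all genes at -0.13 in place of -0.06. The ratios that changed sign were those of Grem1 between Myh11-high and Myh11-low cells (-0.55 with Rgs5 of 5 or more, -0.0417 with Epcam below 1), Grem1 over smooth muscle (-0.15) and Rspo3 over the other cells (-0.0224) without cells over 10% mitochondrial, Mgp over smooth muscle (-1.36) without cells with markers of other types, and, between Myh11-high and Myh11-low cells without the Hhip-positive cells, Hhip (-0.73), F2r (-0.71), Cxcl1 (0.016) and Kit (0.12), all on the log2 scale. That last setting left out Myh11-high cells by their Hhip and kept the 10 Myh11-low cells with Hhip of 2 or more. Its Hhip ratio thus reflects the choice of cells. The cause of the other changes was not tested.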
